A study of Mus musculus with 12 samples.

Results

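The collagen chain genes were followed in 12 samples of whole-tumor RNA from subcutaneous LLC tumors. LLC (Lewis lung carcinoma) cells come from a lung tumor of a C57BL/6 mouse and grow in that strain. A gene was taken as a member where its single symbol in the array's probe table was Col, a number, a, and a number. This gave 42 of the 18193 genes with a single symbol, and 27 of the 42 lay above the 30% of gene means that were too dim to test. All mice were female C57BL/6 animals, 6 to 8 weeks old, with tumors of 60 to 80 mm3 when treatment was allotted, and tumors were taken on day 19. Control tumors received the antibody 13C4, and 1D11 tumors the antibody 1D11. Radiation tumors received 13C4 and radiation, and 1D11_radiation tumors 1D11 and radiation, with 3 samples in each of the 4 groups. TGF-beta is what 1D11 neutralizes, while 13C4 serves as the matched control antibody, so every group had an antibody. The labels disagree on the dose, since the characteristics give 5 fractions of 6 Gy and the descriptions 2 Gy, and on the material, which the descriptions call cells and the source names tumors. The design asks what radiation and TGF-beta neutralization each change in the tumor, and whether one alters the other.

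Collagens are the main structural proteins of connective tissue. Each molecule is a triple helix of 3 chains, some built from copies of a single chain and others from the products of several genes, so the chains of one type must be made together. Fibrillar collagens such as types I, III and V form the cables of the matrix, type IV forms the sheet of the basement membrane, and type VI forms beaded microfilaments around cells. Fibril-associated collagens sit on the surface of fibrils, and the multiplexins, types XV and XVIII, belong to basement membrane zones. In tumors fibroblasts make much of the fibrillar matrix, and TGF-beta is a classical inducer of fibroblast collagen synthesis.

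Values are log2 intensities of the deposited probe set summaries, and a change is a difference of group means on that scale with its standard error (SE). Array medians lay between 62.3 and 66.1 on the linear scale, so the arrays were already on a common scale. A gene is called where its p from limma, after Benjamini-Hochberg adjustment across the 12735 genes tested, was under 0.05. The labels number 3 replicates per group and do not say whether each came from its own animal, so p-values measure the spread between these samples. Each sample is called 1 tumor in the text and figures, without knowledge that the tumors were separate. In whole tumors, fewer cells of a type and less RNA per cell cannot be told apart, and no marker of LLC cells themselves was listed, so tumor and host collagen were not separated. Markers of fibroblasts were above the dim limit for 9 of 10 genes, those of endothelium for 8 of 9, and those of pericytes and smooth muscle for 7 of 9. Of 8 cartilage genes only Sox9 was above it, and Acan, Matn1 and Hapln1, which define cartilage, were below. Skeletal muscle signal varied between tumors: its score, the mean of 12 centred markers, was 1.29 in control replicate 1 and 2.15 in radiation replicate 3 and between -1.60 and 0.75 in the other arrays.

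The radiation main effect compares all 6 irradiated tumors with all 6 unirradiated ones, whichever antibody they had. The 3 tested chains of type VI collagen fell and no other collagen gene was called, in either direction. These 3 of 27 members stand beside a background of 3.87% of all genes tested that were called lower, and 7.26% called in either direction. An unadjusted p under 0.05 was reached by 11 of 27 members, 10 of them lower, against 24.3% and 13.6% of all genes. Of the 27 tested members 21 were lower, where 54.7% of all genes were, with a median change of -0.18 against -0.01 over all genes tested. With the fibroblast score as a covariate that median was -0.0087, and with the pericyte score 0.065, both covariates chosen after seeing the data. Over all 42 members 31 were lower, and the median was -0.10 against -0.02 over all 18193 genes. By class, the median was -0.79 for the 3 type VI chains and -0.21 for 8 fibrillar chains. It was -0.14 for both multiplexins and -0.22 for both tested transmembrane collagens. For 4 network-forming chains it was -0.04, and for 7 fibril-associated chains -0.03.

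**Figure D1:**
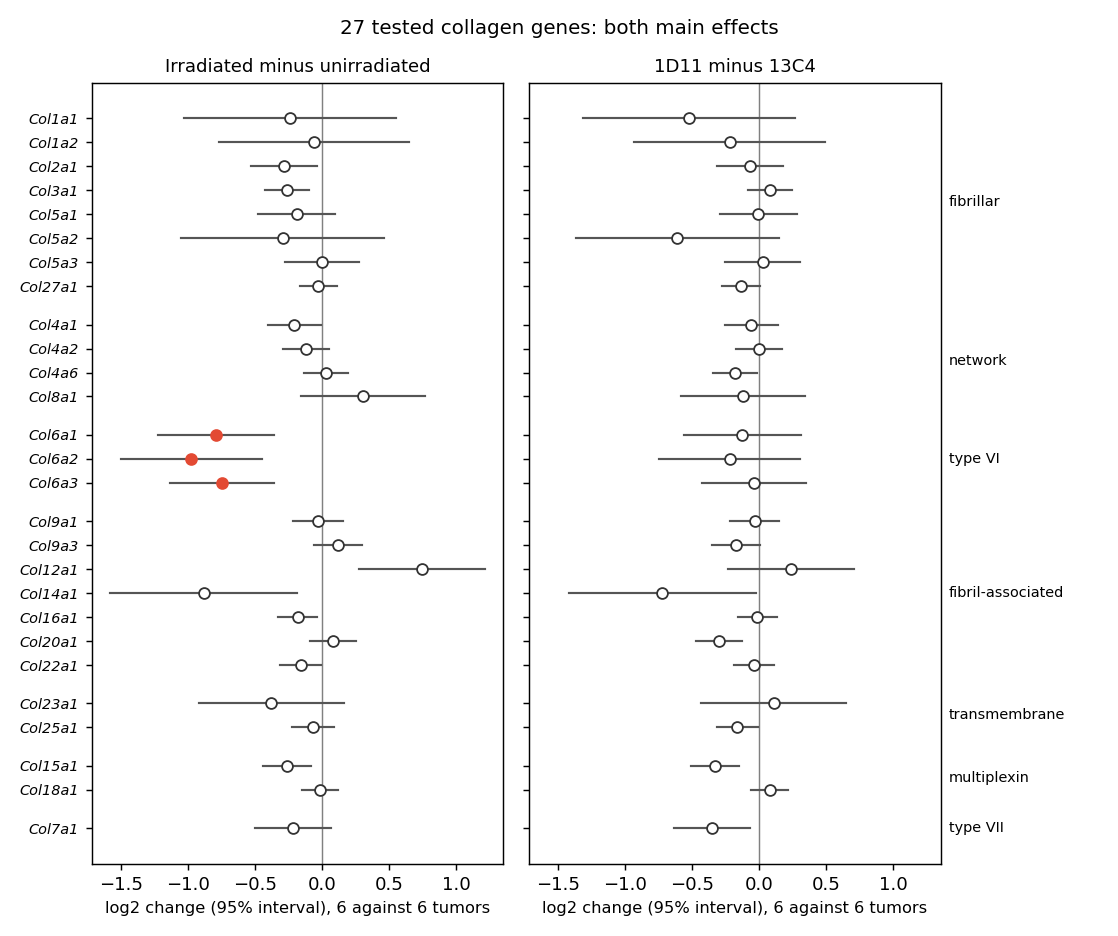
Log2 change (x axes, same range in both panels) of the 27 tested collagen genes, ordered by class, for irradiated against unirradiated tumors (left) and 1D11 against 13C4 (right), 6 against 6 tumors each. Points are changes, lines 95% intervals from the limma model, and filled points called genes: Col6a1, Col6a2 and Col6a3 on the left at -0.79, -0.97 and -0.74, and none on the right.

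Within the 13C4 tumors (radiation against control) no member was called, against 2.39% of all genes tested, and 9 of 27 had an unadjusted p under 0.05, against 18.7% of all genes. Of these, 8 were lower, where the background was 8.74%. In 6 of 27 members every irradiated tumor lay below every control tumor, which 10% of all genes tested did. In all 20 of 27 were lower, where 50.4% of all genes were. Within the 1D11 tumors (1D11_radiation against 1D11) no member was called either, against 0.0785% of all genes. Here 6 of 27 had an unadjusted p under 0.05, all lower, against 15.5% of all genes and 10.3% that were also lower. In all 17 of 27 were lower, against 57.6% of all genes, and 5 of 27 were lower without overlap, against 16.5%. Both of these shares lie near the background. The share lower at an unadjusted p under 0.05, 22.2% of members, lay above its background of 10.3%. Both comparisons had a negative median over the tested members, at -0.22 and -0.10. For the interaction, the radiation effect under 1D11 minus that under 13C4, no member and 0% of all genes were called. At an unadjusted p under 0.05 it was 1 member, Col12a1, and 7.48% of all genes. The term was negative for 10 of 27 members and 57.8% of all genes.

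Type VI collagen is a molecule of chains from Col6a1, Col6a2 and Col6a3, and its microfilaments link cells to the surrounding matrix. Col6a1 and Col6a2 are neighbours on chromosome 10, and Col6a3 lies on chromosome 1. Because these 3 genes moved together, the 250 bases upstream of their RefSeq start sites (build GRCm38.p6) are shown, 5′ to 3′ on the gene's own strand, which is the minus strand for each. They are chr10:76726045-76726294 for Col6a1, chr10:76623631-76623880 for Col6a2 and chr1:90843972-90844221 for Col6a3. The RefSeq gene model of Col6a3 reaches to 90844001, a little into its window. Capitals mark 5 motifs on either strand: GGGCGG (the GC box), TATAAA (the TATA box), CCAAT (the box bound by NF-Y), CAGAC (a SMAD box) and TGANTCA (an AP-1 site).
Col6a1: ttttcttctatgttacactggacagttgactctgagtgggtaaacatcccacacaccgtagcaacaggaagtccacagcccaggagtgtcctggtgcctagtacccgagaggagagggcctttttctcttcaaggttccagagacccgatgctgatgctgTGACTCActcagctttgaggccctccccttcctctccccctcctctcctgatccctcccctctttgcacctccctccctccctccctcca
Col6a2: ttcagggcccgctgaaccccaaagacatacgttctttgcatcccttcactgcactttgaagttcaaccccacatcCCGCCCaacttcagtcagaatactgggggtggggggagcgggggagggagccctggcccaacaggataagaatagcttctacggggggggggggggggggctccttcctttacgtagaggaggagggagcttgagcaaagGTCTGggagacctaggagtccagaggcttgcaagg
Col6a3: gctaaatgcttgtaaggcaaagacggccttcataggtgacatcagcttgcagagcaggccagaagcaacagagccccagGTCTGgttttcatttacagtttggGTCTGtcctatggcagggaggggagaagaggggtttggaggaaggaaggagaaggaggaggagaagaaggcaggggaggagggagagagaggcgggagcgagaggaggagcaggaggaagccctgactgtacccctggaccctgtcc
Col6a1 holds 1 AP-1 letter match, Col6a2 holds 1 GC box and 1 SMAD box, and Col6a3 holds 2 SMAD boxes, so the 3 windows share no single motif of those searched. Their GC content was 56.0%, 59.2% and 57.2%, against a median of 52.4% over 32851 promoter windows and 59.0% over the 36 windows of collagen genes. Of all promoter windows of this length, 42.2% hold the SMAD box, 32.7% the GC box and 6.75% the AP-1 site. The NF-Y box is in 33.8% and the TATA box in 12.4%, and neither is in the 3 windows. Of the 42 members, 33 have an entry, with 36 windows, of which 58.3% hold the GC box, 41.7% the SMAD box and 2.78% the AP-1 site. RefSeq gives Col6a2 a start site further downstream too, whose window, not shown, holds 3 GC boxes and no other of the 5 motifs. No 2 matches overlap in the windows shown. A match is a description of these letters and not a binding site.

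Col6a1 stood at 11.26, 10.95 and 11.25 log2 intensity in control replicates 1 to 3 and at 11.15, 10.89 and 10.64 in the 1D11 tumors. It stood at 10.29, 10.03 and 10.37 in the radiation tumors and at 9.81, 11.05 and 9.85 in the 1D11_radiation tumors. Thus 5 of 6 irradiated tumors lay below all 6 unirradiated ones, and 1D11_radiation replicate 2 lay among the unirradiated. Col6a2 had 11.65, 11.07 and 11.17 in control, 11.19, 10.90 and 10.77 in 1D11, 10.22, 9.89 and 10.49 in radiation, and 9.63, 11.07 and 9.61 in 1D11_radiation tumors. The same tumor stood apart. Col6a3, whose chain is the longest of the 3 and carries a large array of von Willebrand factor A domains, had 12.93, 12.72 and 12.34 in control and 13.01, 12.35 and 12.73 in 1D11 tumors. It had 11.91, 11.70 and 12.38 in radiation and 11.88, 12.30 and 11.46 in 1D11_radiation tumors. For Col6a3 the groups overlapped through radiation replicate 3, at 12.38, and unirradiated values of 12.34 and 12.35.

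**Figure D2:**
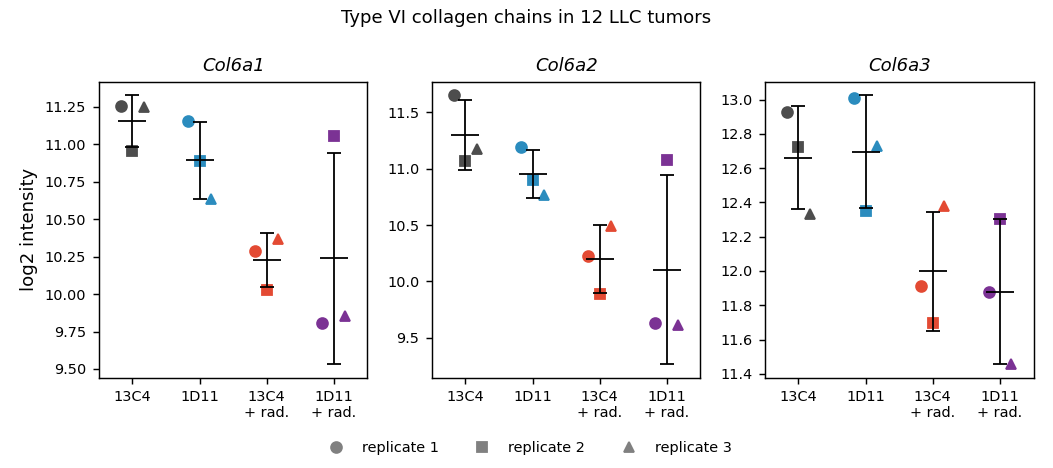
Log2 intensity (y axes) of Col6a1, Col6a2 and Col6a3 in the 4 treatment groups; each symbol is 1 tumor, shaped by replicate number, and the bar is the group mean with its SD (n = 3). The 1D11 + rad. square, replicate 2, sits near the unirradiated tumors at 11.05, 11.07 and 12.30, above the other tumors of its group.

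Over both antibodies Col6a1 fell by 0.79 ± 0.20 (SE, 6 against 6 tumors, adjusted p = 0.0359, limma), to 0.578 of the unirradiated level. Col6a2 fell by 0.97 ± 0.24 (adjusted p = 0.0348), to 0.510 of that level, and Col6a3 by 0.74 ± 0.18 (adjusted p = 0.0306), to 0.598. Within the 13C4 tumors the changes were -0.93 ± 0.28, -1.10 ± 0.34 and -0.66 ± 0.25, and within the 1D11 tumors -0.66 ± 0.28, -0.85 ± 0.34 and -0.82 ± 0.25, none of them called (adjusted p from 0.105 to 0.288). The interaction terms were 0.27 ± 0.39, 0.25 ± 0.48 and -0.15 ± 0.35 (limma, adjusted p from 0.917 to 0.947). Their 95% intervals were -0.60 to 1.14, -0.80 to 1.30 and -0.93 to 0.62, each wider than the radiation main effect of its gene. The effect of 1D11 over both radiation states was -0.12 (95% interval -0.56 to 0.31) for Col6a1, -0.22 (-0.75 to 0.31) for Col6a2 and -0.04 (-0.43 to 0.35) for Col6a3.

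The 3 calls were close to the threshold. They kept their direction without any single tumor, but Col6a1 kept the call in 4, Col6a2 in 3 and Col6a3 in 4 of 12 such fits, with adjusted p up to 0.0879. Each of the 3 lost it without control replicate 1, 1D11 replicate 1, radiation replicate 1 or 2, or 1D11_radiation replicate 1 or 3. Col6a1 also lost it without control replicate 3 or 1D11 replicate 2, Col6a2 without control replicate 3 or 1D11 replicate 2 or 3, and Col6a3 without control replicate 2 or 1D11 replicate 3. Without 1D11_radiation replicate 2 the changes were -0.995, -1.21 and -0.85, and 6 collagen genes were called lower, the others being Col2a1, Col3a1 and Col14a1. Without radiation replicate 3 the count was also 6, namely the 3 type VI chains, Col3a1 and Col14a1 lower and Col12a1 higher. Without both arrays with the most muscle signal, Col6a1 and Col6a2 had adjusted p = 0.0619 and 0.0522 at -0.80 and -0.96, and Col6a3 stayed called.

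Scores of other stromal cells were lower in most irradiated tumors too. The pericyte and smooth muscle score (9 of 9 markers measured) was 0.32 to 0.63 in control and -0.04 to 0.14 in 1D11 tumors, -0.34 to -0.17 in radiation tumors and -0.37 to -0.03 in 1D11_radiation tumors. Both single treatments thus lay below control without overlap. The fibroblast score (10 of 10 measured) was 0.06 to 0.35 in control and 0.10 to 0.24 in 1D11 tumors, -0.31 to 0.02 in radiation tumors and -0.51 to 0.13 in 1D11_radiation tumors. Its highest irradiated value, 0.13, was that of 1D11_radiation replicate 2. Pdgfra and Pdgfrb, receptors of fibroblasts and pericytes, were the 2 fibroblast markers called. They fell by 0.92 ± 0.10 and 1.47 ± 0.23 (limma, adjusted p = 0.00178 and 0.0072). All 7 tested pericyte and smooth muscle markers were lower in the main effect, and 2 were called. The pericyte gene Rgs5 fell by 1.2 ± 0.14 (limma, adjusted p = 0.00272). With the fibroblast score as a covariate, chosen after seeing the data, Col6a1, Col6a2 and Col6a3 were at -0.20, -0.13 and -0.13 (adjusted p from 0.745 to 0.822). With the pericyte score they were at 0.08, 0.29 and 0.07 (adjusted p from 0.915 to 0.984), and with the endothelial score at -0.68, -1.10 and -0.83 (adjusted p from 0.150 to 0.291). The fibroblast, pericyte and endothelial scores were themselves lower in most irradiated tumors, so content of these cells and radiation cannot be told apart for these chains. The keratinocyte score, high in 1D11 replicates 1 and 3 alone, also ended the 3 calls as a covariate, with changes of -0.87, -1.03 and -0.67 (adjusted p from 0.0921 to 0.136).

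Fibrillar chains gave no call in the radiation main effect, and the type I chains varied widely between tumors of one group. Col1a1 and Col1a2 encode the chains of type I collagen, the main collagen of connective tissue. Col1a1 had 9.62, 9.86 and 9.69 in control, 9.09, 9.39 and 9.58 in 1D11, 9.40, 9.04 and 10.47 in radiation and 8.49, 10.36 and 8.04 in 1D11_radiation tumors. Col1a2 had 11.12, 11.53 and 11.46 in control, 11.22, 11.70 and 11.71 in 1D11, 11.39, 11.33 and 12.40 in radiation and 10.62, 12.36 and 10.30 in 1D11_radiation tumors. Both genes had their highest values in radiation replicate 3 and 1D11_radiation replicate 2 and their lowest in 1D11_radiation replicates 1 and 3. Those arrays also differed in skeletal muscle score, at 2.15 and 0.51 in the first pair and -1.004 and -1.60 in the second. Some other arrays did not follow that score. Control replicate 1, at a score of 1.29, had 9.62 for Col1a1 and 11.12 for Col1a2. These lay below the 9.69 and 11.46 of control replicate 3, at a score of -1.27. Radiation replicate 2, at a score of 0.75, had 9.04 and 11.33. The part of muscle or adjoining tissue in the spread of both genes was not tested. The ranges over 12 arrays, 2.42 for Col1a1 and 2.10 for Col1a2, compare with a median range of 0.47 over all genes tested. The radiation effect was -0.24 ± 0.36 for Col1a1 (adjusted p = 0.742, 95% interval -1.03 to 0.55) and -0.06 ± 0.32 for Col1a2 (-0.77 to 0.65). For Col1a2 the sign turned without radiation replicate 1 or 2 or without 1D11_radiation replicate 1 or 3, to 0.02 to 0.14.

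**Figure D3:**
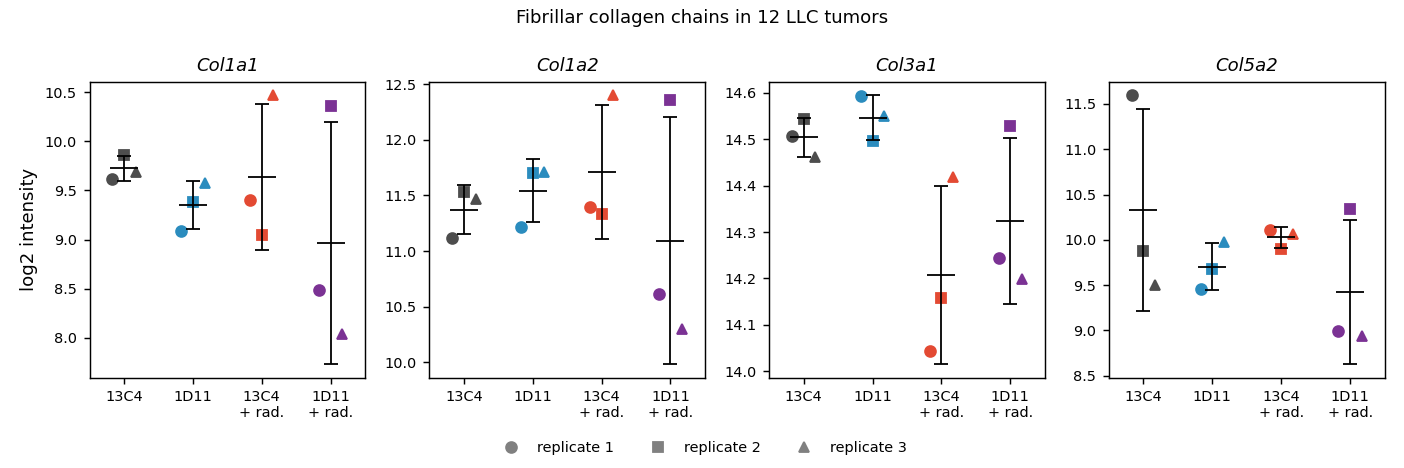
Log2 intensity (y axes) of Col1a1, Col1a2, Col3a1 and Col5a2 in the 4 groups; each symbol is 1 tumor and the bar the group mean with its SD (n = 3). Col1a1 spans 8.04 to 10.36 within the 1D11 + rad. group, and Col5a2 is at 11.60 in control replicate 1 alone.

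Col3a1 encodes type III collagen, which forms thin fibrils beside type I. It had 14.51, 14.54 and 14.46 in control, 14.59, 14.50 and 14.55 in 1D11, 14.04, 14.16 and 14.42 in radiation and 14.24, 14.53 and 14.20 in 1D11_radiation tumors. Every radiation tumor lay below every control tumor, and 1D11_radiation replicate 2 lay among the unirradiated ones. The radiation main effect was -0.26 ± 0.07 and just missed the threshold (adjusted p = 0.0590). It passed without radiation replicate 3 or without 1D11_radiation replicate 2, with adjusted p down to 0.0186, and with the mean of the gene's 2 probe sets. Over all alternatives it passed in 7 of 26 fits, with the lowest adjusted p, 0.0052 in limma, under array weights. The dimmer probe set of Col3a1 changed by -0.80.

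Col5a2, a chain of type V collagen, which starts type I fibrils, is the genomic neighbour of Col3a1. It had 11.60, 9.88 and 9.50 in control, 9.46, 9.68 and 9.97 in 1D11, 10.11, 9.90 and 10.07 in radiation and 8.99, 10.34 and 8.94 in 1D11_radiation tumors. Control replicate 1 stood alone at the top, and without it the radiation effect turned from -0.29 ± 0.34 to 0.03. Its muscle score was 1.29, while radiation replicate 3, at a score of 2.15, had 10.07. Control replicate 1 also stood apart in the collagen breakdown genes Ctsk (11.93, other controls 6.90 and 7.40) and Mmp9 (11.14, other controls 7.12 and 7.17). What sets this tumor apart was not tested. The other fibrillar chains tested had radiation effects of -0.28 ± 0.11 (Col2a1, the cartilage collagen), -0.19 ± 0.13 (Col5a1), 0.00 ± 0.13 (Col5a3) and -0.03 ± 0.06 (Col27a1), none of them called. Col11a1, Col11a2 and Col24a1 were too dim to be tested, with values between 3.49 and 5.12.

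Type IV collagen forms the network of basement membranes, and in a tumor most of it surrounds blood vessels. Col4a1 and Col4a2 lie head to head, with RefSeq gene models that overlap at their starts. Col4a1 had 12.25, 11.997 and 12.33 in control, 12.24, 12.01 and 11.89 in 1D11, 11.97, 11.91 and 11.81 in radiation and 11.70, 12.12 and 11.97 in 1D11_radiation tumors. Col4a2 had 10.57, 10.60 and 10.87 in control, 10.66, 10.50 and 10.46 in 1D11, 10.54, 10.49 and 10.24 in radiation and 10.45, 10.71 and 10.51 in 1D11_radiation tumors. In both genes the radiation tumors lay under all of the controls, while the 1D11 and 1D11_radiation tumors overlapped. The difference between radiation and control was -0.30 ± 0.13 for Col4a1 and -0.26 ± 0.11 for Col4a2 (both with adjusted p = 0.244), and over both antibodies it was -0.21 ± 0.09 and -0.12 ± 0.08, also not called. The endothelial score (9 of 9 markers measured) was lower in irradiated tumors, at -0.32 to -0.08, than in unirradiated ones, at -0.03 to 0.47. Its part in the type IV values was not tested beyond the covariate fit, where Col4a2 turned to 0.09 (adjusted p = 0.707, limma) and Col4a1 did not change sign. Col8a1, a chain of the hexagonal lattice beneath endothelium, had a radiation effect of 0.31 ± 0.21, and Col4a6 0.03 ± 0.08. Col4a3, Col4a4, Col4a5, Col8a2 and the growth plate collagen gene Col10a1 were too dim to be tested.

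The multiplexin Col15a1, whose product lies between basement membrane and fibrils and is found around small vessels and muscle fibres, was the only collagen gene called between the combined treatment and control. This is 1 of 27, against 2.35% of all genes tested called in either direction and 0.636% called lower. At an unadjusted p under 0.05 it was 8 of 27, 7 of them lower, against 21.2% and 9.34% of all genes. In all 23 of 27 were lower, against 50.6%, and 6 of 27 were lower without overlap, against 12% of all genes. The 250 bases upstream of the RefSeq start site used, chr4:47207762-47208011 on the plus strand (GRCm38.p6), are shown because it alone was called there. The RefSeq gene model of Col15a1 begins at 47207655, so this window lies within it. The GC content of the window is 53.6%, and it has none of the letters of the 5 motifs named above.
Col15a1: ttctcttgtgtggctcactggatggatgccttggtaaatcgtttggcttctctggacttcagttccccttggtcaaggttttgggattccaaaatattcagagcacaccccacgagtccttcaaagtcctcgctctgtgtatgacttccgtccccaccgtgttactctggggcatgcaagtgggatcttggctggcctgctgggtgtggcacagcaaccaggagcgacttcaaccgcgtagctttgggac
Col15a1 had 6.41, 6.01 and 6.30 in control, 5.99, 5.95 and 5.90 in 1D11, 5.94, 5.96 and 6.15 in radiation and 5.86, 5.59 and 5.50 in 1D11_radiation tumors. The combined tumors were all below those of the other 3 groups, and the group means of the single treatments lay in between. Every 1D11 tumor was below every control tumor, while radiation replicate 3, at 6.15, was above control replicate 2, at 6.01. The gene fell by 0.59 ± 0.12 (n = 3 tumors per group, adjusted p = 0.0319, limma), to 0.665 of the control level.

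Each single step of Col15a1 was smaller, with none called: -0.22 ± 0.12 for radiation and -0.29 ± 0.12 for 1D11 alone, -0.29 ± 0.12 for radiation under 1D11 and -0.37 ± 0.12 for 1D11 under radiation (adjusted p from 0.253 to 0.840). The interaction term was -0.07 ± 0.16 (adjusted p = 0.946). The call was kept in 5 of 12 fits without 1 tumor. It was lost, at adjusted p up to 0.110, without control replicate 1 or 3, 1D11 replicate 2 or 3, radiation replicate 2 or 1D11_radiation replicate 2 or 3. With only control and 1D11_radiation in the fit its adjusted p was 0.129, and with the fibroblast and pericyte scores as covariates 0.229 and 0.759, at -0.54 and -0.48. With log2 of the intensity plus 32 the change was -0.39, since the gene is dim. Col18a1, the other multiplexin, whose C-terminal fragment is endostatin, ranged from 11.68 to 12.05 over the 12 arrays, with a radiation effect of -0.02 ± 0.06.

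**Figure D4:**
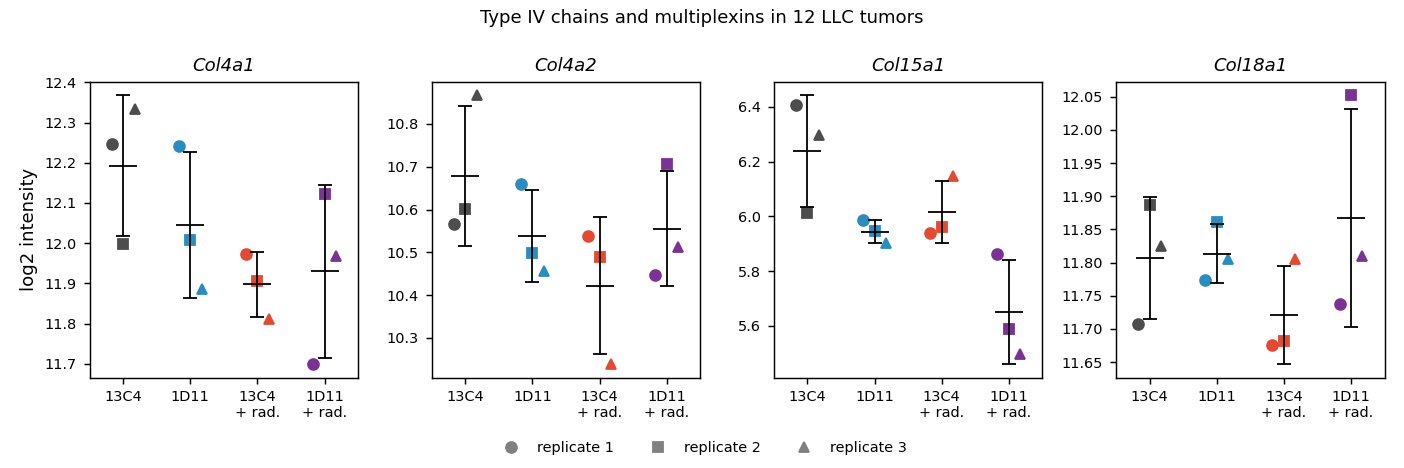
Log2 intensity (y axes, each gene on its own range) of Col4a1, Col4a2, Col15a1 and Col18a1 in the 4 groups; each symbol is 1 tumor and the bar the group mean with its SD (n = 3). Col15a1 in the 1D11 + rad. tumors, at 5.50 to 5.86, lies below all other tumors, and Col18a1 lies between 11.68 and 12.05.

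The fibril-associated collagens went different ways. Col12a1, whose product bridges fibrils and the surrounding matrix and is known from tissue under mechanical load, had 7.46, 7.42 and 7.11 in control and 7.80, 8.32 and 8.00 in 1D11 tumors. It had 9.04, 8.56 and 8.04 in radiation and 7.81, 8.996 and 8.13 in 1D11_radiation tumors. All 9 tumors with any treatment lay above all 3 controls. Its difference between radiation and control, 1.22 ± 0.30 or 2.33-fold, was the closest to a call in that comparison (adjusted p = 0.0579). It passed without radiation replicate 3 (1.47, adjusted p = 0.0371) or without 1D11_radiation replicate 2 (adjusted p = 0.0266), and had adjusted p up to 0.194 without other tumors. The change was 0.71 ± 0.30 for 1D11 alone (adjusted p = 0.326) and 0.98 ± 0.30 for the combination (adjusted p = 0.0983). The interaction, -0.95 ± 0.42, did not pass (adjusted p = 0.660). The value rests on 1 of 4 probe sets: the radiation main effect was 0.75 on the brightest one, 0.28 on the next and -0.03 and -0.08 on 2 dim ones, and with the mean of probe sets the difference between radiation and control was 0.40 (adjusted p = 0.157).

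Col14a1, which encodes a fibril-associated collagen of loose connective tissue and skin, had 7.56, 7.54 and 7.27 in control, 6.90, 6.89 and 6.80 in 1D11, 6.08, 6.27 and 7.77 in radiation and 5.69, 6.80 and 5.07 in 1D11_radiation tumors. Every 1D11 tumor and every 1D11_radiation tumor was below every control tumor, and radiation replicate 3, the tumor with the highest muscle score, was above them. The combined tumors differed from control by -1.60 ± 0.45 (0.329-fold, adjusted p = 0.0791), and this was called without radiation replicate 3 (adjusted p = 0.0347). The radiation main effect was -0.88 ± 0.32 (adjusted p = 0.115), and its 2 dimmer probe sets changed by -0.18 and -0.16. Col16a1 was lower in 1D11_radiation, at 9.77, 9.71 and 9.77, than in 1D11 tumors, at 10.13, 10.12 and 9.87, by 0.29 ± 0.10 without a call (adjusted p = 0.178). The remaining tested members of this class, Col9a1, Col9a3, Col20a1 and Col22a1, had radiation effects between -0.16 and 0.12, none called. Col9a2 and Col19a1 were too dim to be tested.

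**Figure D5:**
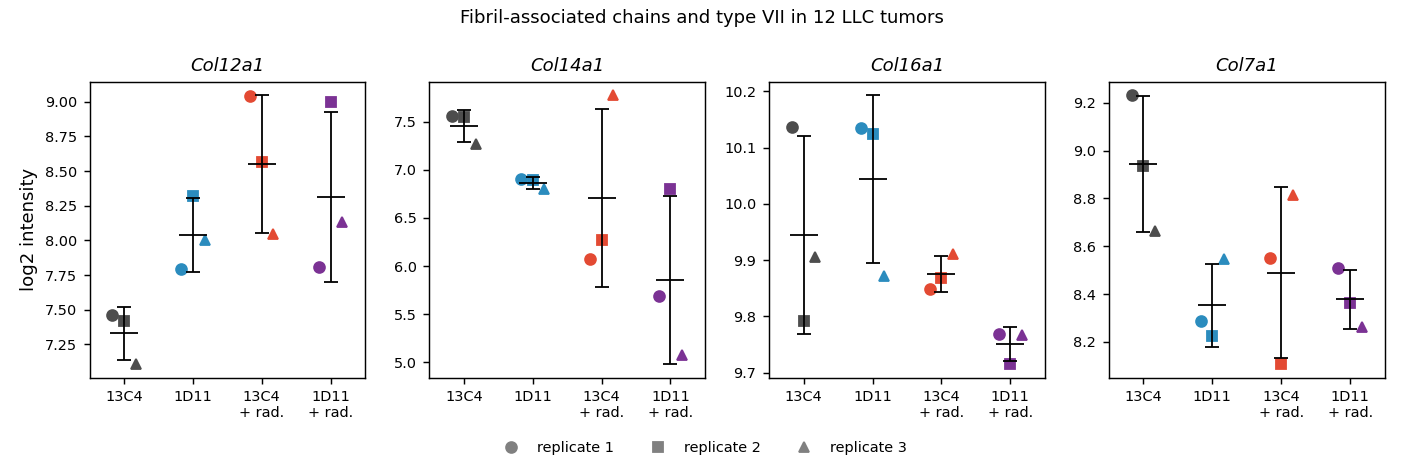
Log2 intensity (y axes, each gene on its own range) of Col12a1, Col14a1, Col16a1 and Col7a1 in the 4 groups; each symbol is 1 tumor and the bar the group mean with its SD (n = 3). Col12a1 is lowest in the controls, at 7.11 to 7.46, while Col14a1 and Col7a1 in the 1D11 tumors lie below the controls.

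Neutralization of TGF-beta left no collagen gene called. Over both radiation states (1D11 main effect) 0 of 27 passed in the limma model, against 0.00785% of all genes tested, and 6 of 27 had an unadjusted p under 0.05, against 12.5% of all genes. All 6 were lower, where 4.72% of all genes were lower at that p. The median over the tested members was -0.12 against 0.02 over all genes tested, with 22 of 27 lower, where 41.0% of all genes were lower. In the unirradiated tumors the median was -0.13, and the pericyte and smooth muscle markers were lower there too, 9 of 9 at a median of -0.39. With that score as a covariate the collagen median was 0.083 for 1D11 against control and 0.011 for the 1D11 main effect. Over all 42 members 29 were lower, at a median of -0.06. In the unirradiated tumors alone (1D11 against control) 0 of 27 were called, against 0.0157% of all genes, and 6 had an unadjusted p under 0.05, against 14.1%, 5 of them lower, against 5.12%. In all 19 of 27 were lower, against 37.9% of all genes, and 6 of 27 were lower without overlap, against 6.95%. In the irradiated tumors (1D11_radiation against radiation) 0 of 27 and 0% of all genes were called, and 2 members had an unadjusted p under 0.05, both lower, against 5.40% of all genes and 2.66% that were also lower. In all 18 of 27 were lower, against 49.2%, and 4 of 27 were lower without overlap, against 6.12%. These comparisons share tumors with those above.

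Col20a1, a fibril-associated chain, had 6.12, 6.37 and 6.39 in control and 5.89, 6.05 and 5.88 in 1D11 tumors, with no overlap, and 6.20, 6.44 and 6.32 in radiation and 6.07, 5.90 and 6.26 in 1D11_radiation tumors. Its 1D11 main effect was -0.30 ± 0.08 (adjusted p = 0.257). Col7a1, the anchoring fibril collagen that fastens epidermis to dermis, had 9.23, 8.94 and 8.67 in control and 8.29, 8.22 and 8.55 in 1D11 tumors, again without overlap. It had 8.55, 8.11 and 8.81 in radiation and 8.51, 8.36 and 8.26 in 1D11_radiation tumors. The Col7a1 difference between 1D11 and control was -0.59 ± 0.18 (adjusted p = 0.212), and its 1D11 main effect was -0.35 ± 0.13 (adjusted p = 0.327). The keratinocyte score was 0.63, -0.24 and 1.61 in the 1D11 tumors and -0.25 to -0.09 in control. In 27 alternative fits, among them a fit with that score as a covariate, the Col7a1 difference between 1D11 and control was -0.74 to -0.45. It was called in none of them. The part of the keratinocyte score in the Col7a1 values was not tested beyond this. Col15a1 had a 1D11 main effect of -0.33 ± 0.08 (adjusted p = 0.257) and Col14a1 one of -0.72 ± 0.32 (adjusted p = 0.385). For type I collagen the interval was wide, from -1.32 to 0.27 for Col1a1, which 6 tumors against 6 did not narrow further.

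Among the transmembrane collagens, Col17a1, which encodes the hemidesmosome collagen of basal keratinocytes, was too dim to be tested on average but not in every tumor. It was at 5.78 and 7.13 in 1D11 replicates 1 and 3 and between 4.08 and 4.49 in the other 10 arrays. The keratinocyte score (7 of 8 markers measured) was 0.63 and 1.61 in the same 2 tumors and between -0.32 and -0.09 elsewhere. Krt14 ranged from 5.02 to 10.63 over the arrays. Col23a1 was at 6.96 in control replicate 2 against 5.12 and 5.94 in the other controls, and Col25a1 was at 6.77, 6.55 and 6.88 in control and 6.32, 6.56 and 6.43 in 1D11 tumors (-0.30 ± 0.10, adjusted p = 0.227). Col13a1 was too dim to be tested, as were Col6a4, Col6a5 and Col26a1. Apart from Col17a1, the untested members had values between 3.49 and 5.43.

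Chains that are built into one molecule, whose genes are neighbours, or that make up the main fibrils (Col1a1 with Col3a1) were compared across the 12 arrays in 8 pairs with both genes tested. The arrays share groups and tissue content, so these correlations describe the set of tumors. Col6a1 and Col6a2 followed each other most closely, with Pearson r = 0.981 and Spearman rho = 0.986 (two-sided permutation test, adjusted p = 8e-05 for both, from the smallest p that 100000 resamples can give). The r was 0.965 without the 2 arrays farthest from the median and 0.957 after removal of group means. Col1a1 and Col1a2 had r = 0.933 and rho = 0.783 (permutation test, adjusted p = 0.00028 and 0.0102), with 0.838 and 0.985 in the same checks. Col4a1 and Col4a2 had r = 0.817 and rho = 0.895 (permutation test, adjusted p = 0.00259 and 0.0012), with 0.772 and 0.776. Col6a1 and Col6a3, on different chromosomes, had r = 0.823 and rho = 0.727 (permutation test, adjusted p = 0.00292 and 0.0192), with 0.728 and 0.603.

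The other pairs were looser. Col5a1 and Col5a2 had r = 0.669 and rho = 0.399 (permutation test, adjusted p = 0.0300 and 0.315), and r was 0.431 without the 2 farthest arrays, so the relation rests on them, and 0.743 after removal of group means. Col1a1 and Col3a1 had r = 0.512 and rho = 0.371 (adjusted p = 0.119 and 0.315 by the permutation test), with r = 0.293 without the 2 farthest arrays and 0.857 after removal of group means. The neighbours Col3a1 and Col5a2 had r = 0.272 (rho = 0.077), and Col9a1 and Col9a3 had r = 0.238 (rho = 0.070), at adjusted p = 0.455 for r and 0.833 for rho in the permutation test.

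The proteins that make, cut, crosslink, bind and remove collagen were read from 4 lists in the radiation main effect. Their counts stand beside the 3.39% of all genes called higher and the 3.87% called lower. Of 17 tested genes of chain modification and folding, 1 rose and none fell, with 15 lower and a median of -0.09. The gene that rose was P4ha2, a subunit of the prolyl 4-hydroxylase that stabilizes the triple helix, by 0.62 ± 0.14 (adjusted p = 0.0238). P4ha2 was at 8.94, 8.98 and 8.67 in control, 7.86, 8.08 and 8.44 in 1D11, 9.12, 8.73 and 9.56 in radiation and 9.15, 9.16 and 8.96 in 1D11_radiation tumors, so the 1D11 tumors were the low group. It lost the call without 1D11 replicate 1 or 2, radiation replicate 1 or 1D11_radiation replicate 1, where its adjusted p reached 0.0599. The collagen chaperone gene Serpinh1 (-0.22 ± 0.10), the galactosyltransferase gene Colgalt1 (-0.21 ± 0.07), Plod3, a lysyl hydroxylase gene (-0.17 ± 0.07), and Sparc (-0.26 ± 0.09) did not pass (adjusted p from 0.0857 to 0.200).

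Of 9 tested genes of propeptide cleavage and crosslinking 1 rose, Pcolce2, whose product enhances removal of the C-terminal propeptide of procollagen. It was at 9.99, 10.02 and 10.09 in control, 10.32, 10.17 and 10.37 in 1D11, 10.85, 10.71 and 10.58 in radiation and 10.90, 10.60 and 10.81 in 1D11_radiation tumors. All irradiated tumors lay above all others. It rose by 0.58 ± 0.07 (adjusted p = 0.0020), passed without any single tumor, and rose by 0.68 ± 0.09 within the 13C4 tumors (adjusted p = 0.00977). The latter call ended without radiation replicate 2 (adjusted p = 0.0530). With the fibroblast score as a covariate the main effect was 0.45 (adjusted p = 0.0893). The median of this list was 0.03, with Adamts3, a procollagen N-propeptidase gene, at 0.26 ± 0.08 (adjusted p = 0.0834) and Loxl3, a lysyl oxidase gene, at -0.20 ± 0.11 (adjusted p = 0.315).

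Of 8 tested genes of collagen breakdown and uptake 1 fell. This was Mmp14, a membrane-bound collagenase gene, by 0.22 ± 0.05 (adjusted p = 0.0238), and it lost the call without any 1D11 tumor, radiation replicate 1 or 2 or 1D11_radiation replicate 1 or 3, reaching 0.0697. The collagenase gene Mmp13 had 1.27 ± 0.54 (limma, adjusted p = 0.178), with 5.11 in control replicate 1 against 8.61 and 8.08 in the other controls. The endocytic collagen receptor gene Mrc2 had -0.19 ± 0.09 (limma, adjusted p = 0.218). Of 7 tested receptor genes 2 fell: Ddr2, a receptor tyrosine kinase for fibrillar collagen, by 0.32 ± 0.06 (adjusted p = 0.0135), and the integrin chain gene Itga1 by 0.44 ± 0.11 (adjusted p = 0.0312). Ddr2 passed without any single tumor and missed the threshold with the mean of probe sets (adjusted p = 0.0542). The Itga1 call ended (adjusted p up to 0.0755) when 1D11 replicate 2 or 3, radiation replicate 1 or 2, or 1D11_radiation replicate 2 or 3 was left out. With the fibroblast score as a covariate P4ha2, Mmp14, Ddr2 and Itga1 missed the threshold as well, at 0.92, -0.15, -0.33 and -0.35 (adjusted p from 0.0806 to 0.453). No gene of the 4 lists was called for the 1D11 main effect, where Loxl4 had -0.19 ± 0.04 and Mmp8 0.49 ± 0.15 (adjusted p = 0.253 and 0.299, limma).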

How the data were processed

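Each of the 12 samples was hybridized to 1 Affymetrix array, from 6 µg of total RNA per the labels' protocols. The authors deposited linear intensity values per probe set, while the software that corrected, normalized and summarized them is not given in the sources used here. Sorted log2 values of any 2 arrays differed by at most 0.129, so the deposited intensity was used as log2 without a further step. Of 45101 probe sets 34945 had a single symbol in the platform's probe table, 932 several and 9160 none, and the 64 control probe sets were dropped. For each of 18193 genes the brightest probe set by mean log2 value was kept, and the lowest 30% of gene means, below log2 5.37, were not tested, leaving 12735. Of the 42 collagen genes 27 have more than 1 probe set.

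The model was fitted by limma 3.58.1 under R 4.3.3, with 1 mean per group over all 12 arrays and eBayes (8 residual and 3.11 prior degrees of freedom), two-sided, adjusted over all genes tested. The fit was tested on simulated data. Alternatives covered normalization, log offset, probe set choice, dim filter, array weights, the replicate number, the arrays included and marker scores as covariates, those of fibroblasts, pericytes and endothelium chosen after seeing the data. Genes with values shown were chosen from those called in any comparison, the 3 with the smallest p in each, and 10 listed chains. Of these, Col27a1, Mmp14, Ddr2 and Itga1 are given without values per array, and Col16a1 and Col25a1 with values for some groups. Some further genes were named after their values were seen. Members and lists were chosen with earlier results of these data known. Promoter letters are from RefSeq, GRCm38.p6. The closest pair of arrays differed with an SD of 0.180 in log2 values, so none was taken for a duplicate. With 3 arrays in a group, their number sets the precision.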

Additional observations from a re-analysis of the deposited data

How the results depend on the processing

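The number of collagen genes called stayed at 0 under all alternatives run for 1D11 against control, 1D11_radiation against radiation, the interaction and the 1D11 main effect. For the other comparisons it moved. With array weights it was 4 for radiation against control, 7 for 1D11_radiation against 1D11, 5 for 1D11_radiation against control and 9 for the radiation main effect. With the skeletal muscle score as a covariate it was 3 for radiation against control, 2 for 1D11_radiation against control and 5 for the radiation main effect. With the lowest 50% of gene means left out it was 1 for radiation against control, 0 for 1D11_radiation against control, where Col15a1 was then too dim to be tested, and 5 for the radiation main effect. Without both arrays with the most muscle signal it was 1 for radiation against control and 0 for 1D11_radiation against control. For the radiation main effect it was then 4, namely Col3a1, Col6a3 and Col14a1 lower and Col12a1 higher. In that comparison it was also 4 with the mean of probe sets, where Col3a1 joined, and without the dim filter, where Col24a1 joined. With only the groups compared it was 0 for 1D11_radiation against control. With the fibroblast or the pericyte score as a covariate it was 0 for 1D11_radiation against control and for the radiation main effect, and with the endothelial score 3 and 0. With the keratinocyte score it was 0 for the radiation main effect. Without single tumors it ran from 0 to 3 for radiation against control, 0 to 1 for 1D11_radiation against 1D11, 0 to 2 for 1D11_radiation against control and 0 to 6 for the radiation main effect. The cause was not tested.

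With the replicate block, the count was 0 for 1D11_radiation against control and 0 for the radiation main effect, where Col6a1, Col6a2 and Col6a3 had adjusted p = 0.0644, 0.0636 and 0.0554. With group means removed, same-numbered arrays had r between -0.31 and 0.27, 3 of 18 pairs were over 0.1, and 1 of 12 arrays was closest to its own number. No common pattern by replicate number was seen, but with 3 arrays in a group this check cannot exclude a pairing.

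Values turned sign as follows, none past the threshold after turning. With the pericyte score, Col6a1, Col6a2 and Col6a3 were at 0.27, 0.64 and 0.44 for radiation against control, at 0.28, 0.54 and 0.32 for 1D11_radiation against control, and at 0.081, 0.29 and 0.065 for the radiation main effect. In that last fit Col1a1 (0.91), Col1a2 (0.84), Col3a1 (0.015), Col4a1 (0.064), Col5a2 (1.70) and Col18a1 (0.061) turned too. With the fibroblast score Col6a2 was at 0.043 for 1D11_radiation against 1D11, and for the radiation main effect Col1a1 (1.05), Col1a2 (0.99), Col5a2 (0.73) and Col18a1 (0.11) turned. With the endothelial score Col1a2 (0.062), Col4a2 (0.092) and Col18a1 (0.065) turned for the radiation main effect. So did Col18a1 with the mean of probe sets (0.0090) and Col5a2 without both arrays with the most muscle signal (0.016). The median change of the tested collagen genes, which has no test, turned with the pericyte score to 0.143 for radiation against control, 0.083 for 1D11 against control, 0.107 for 1D11_radiation against control, 0.048 for 1D11_radiation against 1D11, 0.065 for the radiation main effect, 0.011 for the 1D11 main effect and -0.134 for the interaction. With the fibroblast score it turned to 0.012 for 1D11_radiation against 1D11 and moved to -0.030 for radiation against control and -0.0087 for the radiation main effect. Without single tumors, Col5a2 ranged from -0.52 to 0.026, Col18a1 from -0.063 to 0.016 and Col1a2 from -0.37 to 0.14.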
